A study of Homo sapiens with 18 samples.

Results

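Raji and Namalwa, a pair of untreated lines from Burkitt lymphoma, a tumour of germinal-centre B cells, were set against L428, a line from classical Hodgkin lymphoma, after L428 had been given drugs that remove DNA methylation and block histone deacetylases. The question was which genes of the B lineage stayed silent in L428 under these drugs alone, with no added transcription factor. The arrays measure RNA, and neither DNA methylation nor histone acetylation was measured on them. The comparison used 9 of the 18 arrays of the series, 3 each of Raji, Namalwa and drug-treated L428 (L428+MAT), and the 3 arrays of L428 without those drugs (L428+M) showed the level before the drugs. For each of 18417 genes with a probe set of a single symbol, the mean of the Raji and Namalwa means (the Burkitt mean) was compared with the L428+MAT mean. Of 155 genes listed for the B lineage in 6 groups, 140 were measured, and the other 15, among them IGHM, EBF1, HLA-DRA and CD74, were not analysed here.

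L428+MAT stands for L428 cells kept in 0.25 nM mifepristone for 2 days before the demethylating nucleoside 5-aza-2′-deoxycytidine (5-aza-dC) was given at 3 µM for 3 days. Trichostatin A (TSA), the deacetylase inhibitor, was present at 640 nM over the last 24 hours. L428+M cells had 0.25 nM mifepristone with a treatment time of 5 days. Mifepristone serves to induce PAX5 in L428-PAX5, a derivative line whose arrays entered here only the estimate of spread between replicates. Raji and Namalwa had neither mifepristone nor the drugs, so that cell line, mifepristone and drugs cannot be told apart in their difference from L428+MAT. L428 is a single line, and nothing in the labels tells whether the 3 arrays of a group came from 3 cultures. The p-values therefore reflect only how far these arrays of a group lay apart, which may be technical variation. In RNA from whole cultures, fewer cells with a transcript and less transcript per cell cannot be told apart.

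Mature B cells sense antigen through an immunoglobulin held in the membrane with the signalling chains CD79A and CD79B. Receptor engagement activates the kinases LYN, SYK and BTK, which act through the adaptor BLNK on phospholipase PLCG2, and a set of transcription factors headed by PAX5, EBF1 and the E proteins keeps the genes of this apparatus active. Hodgkin tumour cells descend from germinal-centre B cells but have lost most of this expression program, and methylated promoters and deacetylated histones are marks often found at silenced genes. 5-aza-dC is built into DNA and traps DNA methyltransferases as cells divide, and TSA keeps histones acetylated.

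Values are log2 expression values, on which a difference of 1 is 2-fold. Replicate arrays of the 4 groups correlated across genes with r from 0.9813 to 0.9961, and all arrays differed in their values. The labelled lines were checked against defining markers. Of 6 measured B-cell markers (CD79A, CD79B, MS4A1, CD22, PAX5 and BLNK), 6 lay above the array median on all Raji arrays and 5 on all Namalwa arrays, where MS4A1 lay below it, against 0 in L428+MAT and 0 in L428+M. Their summed log2 level was 68.28 to 68.41 in Raji, 60.58 to 60.61 in Namalwa and 34.85 to 37.34 in L428+MAT. The 5 Hodgkin markers TNFRSF8, CCL17, MSC, FSCN1 and ID2 lay above the median on every L428+MAT array, with a summed level of 54.56 to 57.08 against 36.20 to 37.18 in Raji and 37.12 to 38.52 in Namalwa, where 4 of the 5, all but MSC, also lay above it on every array. No marker of T and NK cells (0 of 7) or of myeloid cells (0 of 5) lay above the median on all arrays of Raji, Namalwa or L428+MAT. In L428+M 1 of the 7 T and NK markers, NKG7, did so, and 0 of the 5 myeloid ones. Of 4 plasma-cell markers, 3 (PRDM1, XBP1 and MZB1, but not SDC1) lay above it on all arrays of each of these groups. Of 5 fibroblast and epithelial markers, 1 (COL1A1, but not COL3A1, DCN, EPCAM or KRT19) did so in each.

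Burkitt lines and drug-treated L428 differed in a large share of the transcriptome. By limma with Benjamini-Hochberg adjustment, 7755 genes (42.1%) passed an adjusted p of 0.05, with 4102 (22.3%) higher and 3653 (19.8%) lower in the Burkitt mean, and the median difference of all genes was 0.10. At a difference of at least 2-fold, 1245 (6.76%) were higher and 1772 (9.62%) lower. Among calls the share of higher genes was 52.9%, and it was 64% (5622 higher and 3156 lower) when each array's median was subtracted, which moved the median of all genes from 0.099 to 0.207. Values of Burkitt and L428+MAT arrays did not overlap for 6441 genes (35%). The drugs moved fewer genes, 775 (4.21%) higher and 117 (0.635%) lower in L428+MAT than in L428+M, or 1156 (6.28%) and 436 (2.37%) when replicate numbers entered as a block. Together these were 4.84% of genes, and 1.93% rose and 0.0706% fell at least 2-fold. These comparisons share the L428+MAT arrays, so their values are given side by side below and were not correlated.

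B-lineage genes formed much of the upper end. JCHAIN, the joining chain of polymeric immunoglobulin, showed the largest difference of all genes that met the naming rule (7.73 ± 0.16, log2 difference ± SE, 213-fold, adjusted p = 3.72e-17). Among the 8 largest were also CD180 (6.70 ± 0.11), CD79A (6.10 ± 0.14), STAP1 (5.94 ± 0.20) and SLAMF6 (5.86 ± 0.16) of the B-lineage lists. PLAC8 (6.52 ± 0.16), CYTIP, an adaptor that regulates leukocyte adhesion (6.48 ± 0.13), and ARHGDIB, a GDP dissociation inhibitor of blood cells (6.34 ± 0.13), were the other three. Of these 8, only ARHGDIB had a passing drug change, from 5.05, 4.80 and 4.96 in L428+M to 5.82, 5.66 and 5.97 in L428+MAT (0.88 ± 0.15, adjusted p = 7.53e-04), still far below its 12.10 to 12.33 in Raji.

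Of the 140 measured B-lineage genes, 90 were higher in the Burkitt mean, 26 were lower and 24 did not pass, with a median difference of 1.04 beside 0.10 for all genes. Those at least 2-fold higher with a passing test are called Burkitt-high below and numbered 73 (52.1%, beside 6.76% of all genes). A Burkitt-high gene was called silent when it lay below the array median of all genes on each L428+MAT array and the drugs gave no passing rise over L428+M. It was called raised when the rise under the drugs passed, and expressed but lower otherwise, which needs a value at or above the median on at least 1 L428+MAT array. Of all genes, 46.7% lay below the median on every L428+MAT array, and 2.74% were Burkitt-high and silent, 0.337% Burkitt-high and raised, and 3.68% Burkitt-high and expressed but lower. By this rule 43 were silent (58.9%, beside 40.6% of all 1245 Burkitt-high genes), 5 were raised (6.85%, beside 4.98%) and 25 were expressed but lower (34.2%, beside 54.5%). Dim signal is no proof that a transcript is absent, and 19 of the 43 lay in the lowest 25% of genes on every L428+MAT array.

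By the rule, no silent gene had a passing rise under the drugs, so their drug changes are given as a description. The L428+MAT minus L428+M difference had a median of 0.03 and ran from -0.45 for JCHAIN to 0.80 for CXCR5. Their Burkitt minus L428+MAT difference had a median of 3.55 and ran from 1.03 for SLAMF7 to 7.73 for JCHAIN, beside 1.68 for all 505 genes called silent by the same rule. Of the 43, 38 (88.4%) were higher in each line by a passing test, beside 81.8% of those 505. In 37 (86%) each line was at least 2-fold higher, beside 62.2%, and in 39 (90.7%) the 6 Burkitt and 3 L428+MAT values did not overlap, beside 83.6%. The same contrast chose these genes, so nothing is read from the shares among all genes, which were 12.3% higher in each line and 18.1% with all Burkitt values above. Of all genes 19% passed upward in Raji alone and 20.2% in Namalwa alone, and 6.74% and 8.13% did so at 2-fold or more. With the replicate number as a block, CXCR5 (adjusted p = 0.0439) and MME (adjusted p = 0.0356) passed upward under the drugs, which left 41 silent genes. The 25 genes expressed but lower included PAX5 itself and the signalling kinase BLK, and the raised ones were CD38, CD52, CR2, IRF8 and HLA-DOB.

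**Figure D1:**
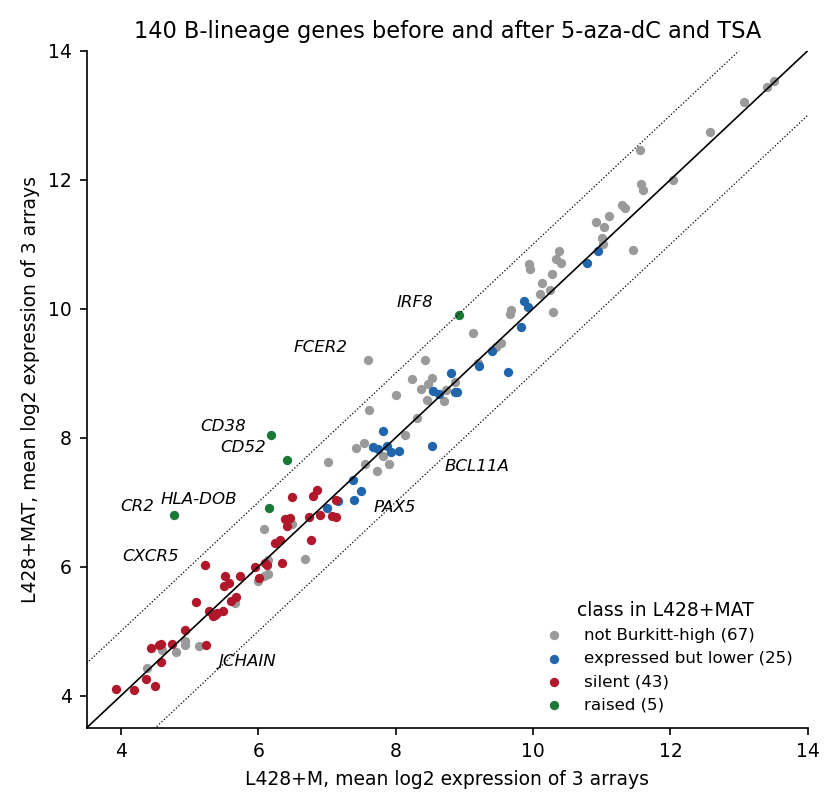
Mean log2 expression of 140 B-lineage genes in L428+M (x axis) and L428+MAT (y axis), 3 arrays each. Points are genes coloured by class, the solid line marks equal values and the dotted lines a 2-fold difference; the 43 silent genes lie within the dotted lines, and CD38, CD52, CR2 and FCER2 lie above the upper one.

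Because drugs that act on DNA methylation were used, the promoters of the silent and raised genes were compared by their CpG sites, the dinucleotides that carry methylation. The 250 bases before the gene start were taken from RefSeq (GRCh38.p14), where 34 of the 43 silent genes and all 5 raised genes had an entry. Below are the silent genes CD79A and TCL1A and the raised genes CD38 and CR2, a pair with few and many CpG sites in each class, written 5′ to 3′ on the strand of the gene with each CpG in capitals. The windows are chr19:41877029-41877278 on the plus strand for CD79A, with 4 CpG sites, and chr14:95714126-95714375 on the minus strand for TCL1A, with 23. They are chr4:15778078-15778327 on the plus strand for CD38, with 3, and chr1:207454078-207454327 on the plus strand for CR2, with 17.
CD79A: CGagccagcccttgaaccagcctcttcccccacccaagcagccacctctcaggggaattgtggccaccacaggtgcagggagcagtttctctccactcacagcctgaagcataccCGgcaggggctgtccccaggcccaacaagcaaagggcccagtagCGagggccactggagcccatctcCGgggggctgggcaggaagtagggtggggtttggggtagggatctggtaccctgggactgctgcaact
TCL1A: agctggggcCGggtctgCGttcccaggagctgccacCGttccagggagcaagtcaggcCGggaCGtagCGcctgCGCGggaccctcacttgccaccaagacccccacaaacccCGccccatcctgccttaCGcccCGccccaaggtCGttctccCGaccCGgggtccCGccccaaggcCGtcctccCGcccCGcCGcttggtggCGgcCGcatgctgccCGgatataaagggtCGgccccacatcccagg
CD38: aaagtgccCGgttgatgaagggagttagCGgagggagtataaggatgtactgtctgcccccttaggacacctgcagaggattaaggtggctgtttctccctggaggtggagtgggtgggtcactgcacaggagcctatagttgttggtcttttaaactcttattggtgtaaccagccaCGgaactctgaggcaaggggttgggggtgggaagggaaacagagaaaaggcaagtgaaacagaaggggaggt
CR2: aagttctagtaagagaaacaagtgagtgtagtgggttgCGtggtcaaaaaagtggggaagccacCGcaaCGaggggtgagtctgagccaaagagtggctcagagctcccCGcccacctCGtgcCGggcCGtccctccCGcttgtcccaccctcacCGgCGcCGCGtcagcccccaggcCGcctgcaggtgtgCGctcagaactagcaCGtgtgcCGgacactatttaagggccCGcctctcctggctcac

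Most silent genes had promoters with few CpG sites, and so had the raised ones. The silent genes had a median of 4 CpG sites in this window, and 23 of 34 (67.6%) had fewer than 10. The raised genes had a median of 3 with 4 of 5 (80%) under 10, where CR2 was the exception. Genes expressed but lower had a median of 6 (13 of 19 under 10, 68.4%), and B-lineage genes that were not Burkitt-high a median of 8.5 (31 of 58, 53.4%). All 14238 tested genes with an entry had a median of 18, with 29.7% under 10. Silent genes with 20 or more sites were NFATC1 (34), BTK, ID3, ELL3 and RFXAP (24 each), TCL1A (23), NEIL1 (22) and SUSD3 (20). The octamer ATTTGCAT, the site named for the OCT factors POU2F1 and POU2F2, was searched on both strands and found in 2 silent promoters (5.88%), those of SERPINA9 and VPREB3. It was found in CD53 and PRKCB of the expressed but lower genes, in 0 raised genes and in 1.57% of the promoters of all tested genes. Among B-lineage genes that were not Burkitt-high, 1 promoter held it, that of IL4R (1.72%). With matches in only 2 of 34 silent promoters, no excess is read from these shares. A second motif was also searched and found in 0 of the 34 silent promoters, beside 1.23% for all tested genes. Of the other B-lineage genes, only PTPN6, which was not Burkitt-high, held that second motif. A match does not say whether a factor binds.

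**Figure D2:**
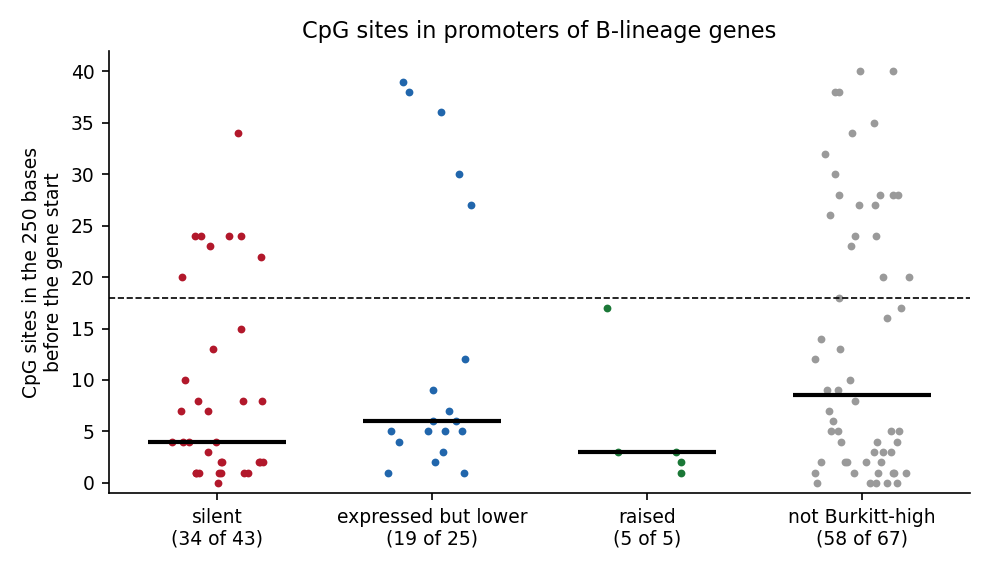
CpG sites in the 250 bases before the gene start (y axis) for B-lineage genes by class, 1 point per gene with horizontal scatter for visibility, solid bars at class medians (4, 6, 3 and 8.5 from left to right). The dashed line is the median of 18 over all tested genes with an entry, and numbers under each class give genes with an entry of all genes in the class.

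Chains of the antigen receptor and its coreceptor were mostly silent. Of 9 measured, 8 were higher and 1 lower in the Burkitt mean, beside 22.3% higher and 19.8% lower among all genes. Silent were 5 (JCHAIN, CD79A, CD79B, VPREB3 and VPREB1), 1 was raised (CR2) and 2 were expressed but lower (CD81 and IGLL1). IGLL1 was counted as silent when L428+MAT replicate 3 was left out. CD79A was 5.96, 5.96 and 6.13 in L428+MAT and 6.37, 6.24 and 5.78 in L428+M, against 12.45, 12.38 and 12.07 in Raji and 12.14, 12.01 and 11.64 in Namalwa. The L428 values of both groups interleave and lie far below either line, a 68.4-fold difference from the drug-treated cells (adjusted p = 2.74e-16), with a drug change of -0.11 ± 0.16. CD79B, its partner chain, was 6.50, 6.70 and 7.08 in L428+MAT and 6.49, 6.69 and 7.04 in L428+M, with nearly equal values on arrays of equal number. It was 11.24, 11.37 and 11.38 in Raji and 10.32, 10.51 and 10.36 in Namalwa (17.1-fold over L428+MAT, adjusted p = 1.19e-14). JCHAIN was 4.91, 4.65 and 4.80 in L428+MAT and 12.32 to 12.85 over the 6 Burkitt arrays.

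Pre-B-cell receptor parts were lower in level and less uniform. VPREB3, an endoplasmic reticulum protein that resembles the surrogate light chain, was 5.58, 6.26 and 6.31 in L428+MAT, below 8.40 to 8.96 in Raji and 8.67 to 9.34 in Namalwa (2.85 ± 0.18, adjusted p = 1.04e-10). VPREB1, a part of that surrogate light chain, was 4.18, 4.65 and 4.74 in L428+MAT and 4.51, 4.95 and 4.94 in Raji, which overlap, and 8.13, 8.39 and 7.89 in Namalwa. Its call rests on Namalwa (3.61, adjusted p = 6.3e-12, beside 0.27 with adjusted p = 0.25 in Raji). CD81, a tetraspanin of the cell surface, was bright in every group, with 11.04, 11.01 and 10.62 in L428+MAT and 11.82 to 12.73 in the Burkitt lines (1.48 ± 0.23, adjusted p = 3.38e-05). IFITM1, an interferon-induced membrane protein, was the lower member, at 12.43, 12.60 and 12.36 in L428+MAT, 6.73, 6.83 and 6.83 in Raji and 11.12, 11.07 and 10.55 in Namalwa. The drugs had raised it by 0.90 ± 0.16 (adjusted p = 1.37e-03).

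Signal transducers just behind the receptor were split. Of 27 measured, 18 were higher, 2 were lower (DAPP1 and SH3BP5) and 7 did not pass, beside 22.3% higher and 19.8% lower among all genes. By class, 7 were silent, 7 expressed but lower and 13 not Burkitt-high. Under the drugs 0 of the 27 passed by limma, and 4 had an unadjusted p under 0.05 with a rise. With the replicate number as a block, 1 passed (RASGRP3, 0.75 ± 0.27, adjusted p = 0.0334). Among all genes 4.21% rose and 0.635% fell, or 6.28% and 2.37% with the block. A count of 0 in so short a list is near those shares. SYK, the kinase that docks on CD79A and CD79B, was 5.49, 5.74 and 5.36 in L428+MAT and 5.67, 5.88 and 5.48 in L428+M, against 9.51 to 9.81 in Raji and 10.16 to 10.21 in Namalwa (21.1-fold over L428+MAT, adjusted p = 2.07e-15). BTK, the kinase that activates PLCG2, was 5.46, 5.39 and 5.52 in L428+MAT and 4.99, 5.24 and 5.05 in L428+M, while Raji had 10.42 to 10.62 and Namalwa 9.50 to 9.71. Every L428+MAT value of BTK lay above every L428+M value, but the drug change of 0.36 ± 0.13 did not pass (adjusted p = 0.164). BLNK, the adaptor that joins these kinases to PLCG2, was 5.03, 5.14 and 5.56 in L428+MAT, overlapping its L428+M range of 5.10 to 5.67, and 9.76 to 10.24 over the Burkitt arrays (26.9-fold, adjusted p = 1.85e-14).

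STAP1, an adaptor phosphorylated after receptor engagement, had the largest difference of the signalling list, with 4.08, 4.02 and 4.21 in L428+MAT, 10.17 to 10.99 in Raji and 9.14 to 9.93 in Namalwa (61.2-fold, adjusted p = 1.66e-14). The adaptors DOK3 (2.12 ± 0.17) and LAT2 (1.61 ± 0.13) were silent with smaller differences. BANK1, a scaffold for receptor-driven calcium release, was 8.76 to 9.41 in Raji but 4.73, 4.80 and 4.85 in Namalwa, below its 5.30, 5.03 and 5.63 in L428+MAT, so that its call rests on Raji. Genes of this list that L428+MAT expressed below the Burkitt level were led by the kinase BLK, at 7.92, 7.73 and 7.92 in L428+MAT and 10.30 to 10.92 in the Burkitt lines (2.71 ± 0.12). The other six of that class were smaller, from 1.01 for the kinase PRKCB to 1.36 for the adaptor SH2B2 and for the phosphatase INPP5D. LYN, the first kinase of the cascade, was 10.38, 10.00 and 10.31 in L428+MAT, 10.48 to 10.71 in Raji and 11.16 to 11.21 in Namalwa, and its difference of 0.64 ± 0.17 passed without reaching 2-fold.

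PLCG2, the phospholipase at the end of this chain, depends on the probe set. The brighter of its 2 probe sets, used for the gene, averaged 13.20 in L428+MAT, 13.25 in Raji and 13.26 in Namalwa (0.06 ± 0.14, adjusted p = 0.758). The other averaged 8.45, 11.32 and 11.47, a difference of 2.95, and the mean of both gave 1.50 (adjusted p = 3.1e-09). Which of them follows the transcript was not tested.

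**Figure D3:**
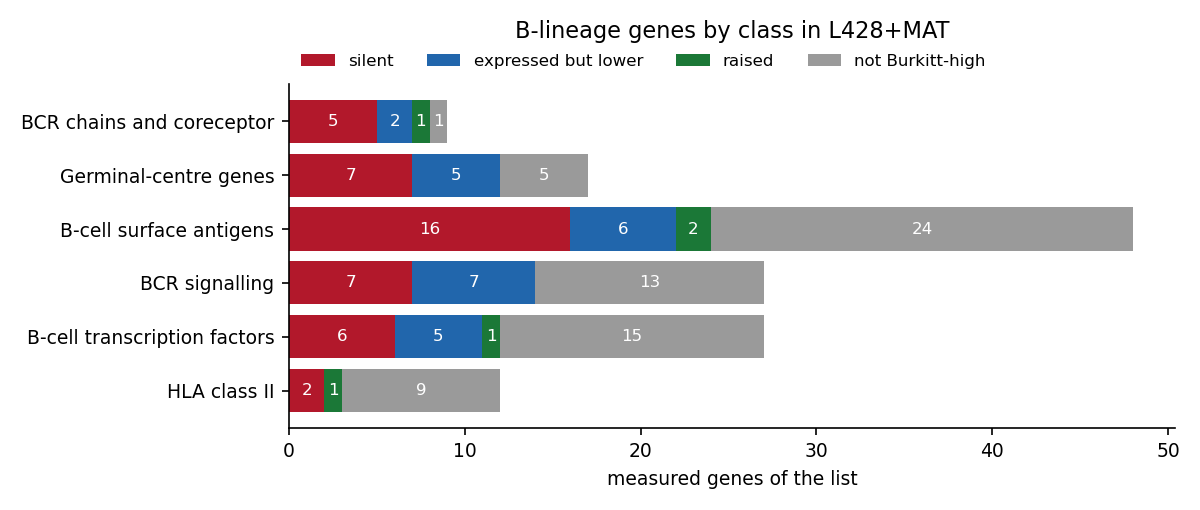
Measured genes (x axis) of the 6 B-lineage lists by class in L428+MAT, with counts in the bars. Silent genes number 5 of 9 in the receptor list, 7 of 17 germinal-centre genes, 16 of 48 surface antigens, 7 of 27 signalling genes, 6 of 27 transcription factors and 2 of 12 HLA class II genes.

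Surface antigens held 16 of the 43 silent genes and also 13 of the 26 B-lineage genes that were lower in the Burkitt mean. Of 48 measured, 33 were higher, 13 lower and 2 did not pass, beside 22.3% higher and 19.8% lower among all genes. By class, 2 were raised and 6 expressed but lower. CD22, an inhibitory receptor of B cells, was 5.91, 5.73 and 5.90 in L428+MAT, 11.83 to 12.04 in Raji and 10.80 to 11.05 in Namalwa (47.7-fold, adjusted p = 4.69e-16). CD180, a Toll-like receptor relative, was 4.04, 4.20 and 4.19 in L428+MAT and 10.68 to 11.10 over the Burkitt arrays, and LY86, the protein that pairs with it, was 4.06, 4.21 and 4.49 against 8.22 to 8.50 in Raji and 7.10 to 7.76 in Namalwa. Both members of this receptor pair were thus silent in drug-treated L428. CD27, a costimulatory receptor of memory B cells, was 6.72, 6.53 and 6.62 in L428+MAT and 12.52 to 12.67 in Raji, with 10.68 to 11.28 in Namalwa. SLAMF6 and CD48, adhesion receptors of the SLAM family, differed by 5.86 ± 0.16 and 5.08 ± 0.18.

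Some silent calls rest largely or wholly on Raji. MS4A1, which encodes CD20, was 4.36, 4.61 and 5.38 in L428+MAT and 4.44, 4.44 and 4.76 in L428+M, against 11.82, 11.88 and 12.38 in Raji but 5.78, 5.90 and 6.72 in Namalwa. Raji lay 7.25 above L428+MAT (adjusted p = 2.9e-14) and Namalwa 1.35 (adjusted p = 1.76e-04), and no Namalwa array reached the array median. FCRL3, an Fc receptor-like protein, was 9.31 to 9.80 in Raji and 5.12 to 5.41 in Namalwa, where it overlaps the 5.16 to 5.52 of L428+MAT. The metalloprotease ADAM28 followed the same order, with 7.13 to 7.87 in Raji and 4.56 to 5.10 in Namalwa beside 4.64, 5.09 and 5.33 in L428+MAT. CXCR5, the chemokine receptor that guides B cells into follicles, was 9.09, 9.59 and 9.62 in Raji, 6.38, 6.57 and 6.35 in Namalwa and 6.05, 5.94 and 6.09 in L428+MAT, and the Namalwa difference of 0.41 did not pass (adjusted p = 0.23). Before the drugs CXCR5 was 5.71, 4.90 and 5.07, below each L428+MAT value.

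**Figure D4:**
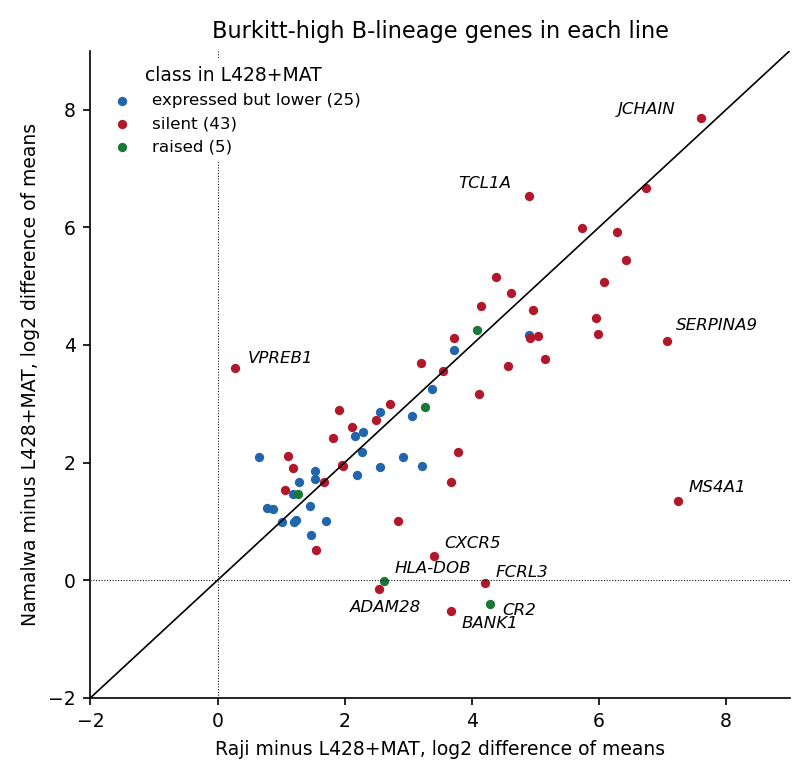
Difference of Raji (x axis) and of Namalwa (y axis) from L428+MAT, as log2 differences of means, for the 73 Burkitt-high B-lineage genes coloured by class; the solid line marks equal differences. MS4A1, FCRL3, CR2, BANK1, ADAM28, CXCR5 and HLA-DOB lie far below the line, with Namalwa at 1.35 or less, and VPREB1 lies above it.

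The surface antigens expressed but lower in L428+MAT numbered 6. CD53, a tetraspanin of leukocytes, was 7.81, 7.60 and 8.06 in L428+MAT and 11.83 to 12.76 in the Burkitt lines (4.54 ± 0.15, adjusted p = 1.83e-14). PTPRC, the phosphatase CD45, was 7.35, 6.93 and 6.80, with a single L428+MAT array above its median, and 10.15 to 10.44 in the Burkitt lines (3.31 ± 0.13). CD37 (2.51 ± 0.20), PTPRCAP (2.58 ± 0.23), and the receptors for the survival factor BAFF, TNFRSF13C (1.13 ± 0.13) and TNFRSF13B (1.09 ± 0.14), were the others. PTPRCAP was counted as silent when L428+MAT replicate 3 was left out. Several antigens of activated B cells ran the other way. CD200 was 10.87, 10.54 and 10.89 in L428+MAT and 5.22 to 6.24 in the Burkitt lines, 35.7-fold lower there (adjusted p = 5.44e-14). CD86, a ligand for T-cell costimulation (-4.67 ± 0.17), and CCR7, the receptor that draws cells into lymph nodes (-4.17 ± 0.15), were lower in each line. CCR7 differed between lines (adjusted p = 1.18e-12), with 10.60 to 10.71 in Raji and 6.40 to 6.57 in Namalwa beside 12.65 to 12.85 in L428+MAT.

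Transcription factors of the B lineage ranged from silent to bright in drug-treated L428. Of 27 measured, 15 were higher, 4 lower and 8 did not pass, beside 22.3% higher and 19.8% lower among all genes. By class, 6 were silent (POU2AF1, ID3, AFF3, NFATC1, SPI1 and POU2F2), 1 was raised and 5 were expressed but lower. POU2AF1, the coactivator of octamer factors, was 6.33, 6.29 and 6.59 in L428+MAT and 6.32, 6.51 and 6.11 in L428+M, against 11.13 to 11.61 in Raji and 10.82 to 11.10 in Namalwa (27.3-fold over L428+MAT, adjusted p = 6.15e-15). POU2F2, the octamer factor OCT2 with which it acts, was 6.53, 6.86 and 6.99 in L428+MAT and 8.52 to 8.89 over the Burkitt arrays (1.95 ± 0.15). SPI1, the ETS factor PU.1, was 6.81, 6.76 and 6.73 in L428+MAT and 8.24 to 9.13 in the Burkitt lines (1.96 ± 0.17). ID3, an inhibitor of E proteins, was 7.00, 6.93 and 6.27 in L428+MAT and 9.49 to 10.58 in the Burkitt lines (3.45 ± 0.24).

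PAX5 was 7.08, 7.14 and 7.28 in L428+MAT, against 10.77 to 10.97 in Raji and 10.85 to 11.31 in Namalwa (14.1-fold, adjusted p = 5.55e-10). It missed the silent class because replicate 3 of L428+MAT lay above its array median of 7.17, and it was counted as silent without that array. In L428+M it was 8.64, 7.14 and 6.70, with replicate 1 above every L428+MAT value, and the drug change of -0.33 ± 0.30 did not pass. TCF3, which encodes the E proteins E12 and E47, was 9.52, 9.40 and 9.12 in L428+MAT and 10.68 to 11.52 in the Burkitt lines (1.69 ± 0.19). BCL11A, a zinc finger factor of early B cells, was the only B-lineage gene that fell under the drugs, from 8.49, 8.69 and 8.40 to 7.72, 8.01 and 7.88 (-0.65 ± 0.13, adjusted p = 3.50e-03).

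Factors whose Burkitt mean did not pass against L428+MAT included IKZF1, the founding Ikaros family member (-0.08 ± 0.23, adjusted p = 0.800), TCF4 (-0.30 ± 0.24, adjusted p = 0.355) and SPIB (0.47 ± 0.26, adjusted p = 0.162). IKZF1 was 11.20, 11.02 and 11.07 in L428+MAT, between 10.14 to 10.65 in Raji and 11.55 to 11.75 in Namalwa, with no overlap, and TCF4 was likewise between the lines, at 11.66 to 12.04. In Raji alone both were lower by a passing test (IKZF1 -0.74, adjusted p = 0.0368, and TCF4 -0.99, adjusted p = 0.0084). SPIB passed without L428+MAT replicate 1 (0.80, adjusted p = 0.0217). A p that misses the threshold does not show that the levels are alike. IRF4, the factor that drives plasma-cell fate, was 12.08, 12.04 and 11.89 in L428+MAT, 6.57 to 7.01 in Raji and 10.63 to 11.07 in Namalwa (-3.14 ± 0.14, adjusted p = 6.88e-13). The difference from L428+MAT was -5.17 in Raji and -1.11 in Namalwa, and the lines differed by a passing test (adjusted p = 6.69e-13).

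Germinal-centre genes held 7 silent members of 17, and 13 were higher, 1 (EZH2) was lower and 3 did not pass. Among all genes 22.3% were higher and 19.8% lower. The EZH2 call (-0.44 ± 0.14) was lost without L428+MAT replicate 2 (adjusted p = 0.0781) or 3 (adjusted p = 0.0947) and with array medians subtracted (adjusted p = 0.0899). TCL1A, a coactivator of the kinase AKT whose CpG-rich promoter is shown above, was 5.57, 5.62 and 6.03 in L428+MAT, 10.33 to 10.85 in Raji and 12.12 to 12.37 in Namalwa (52.5-fold, adjusted p = 1.92e-15). In L428+M it was 5.55, 5.59 and 5.58, a drug change of 0.17 ± 0.19. SERPINA9, a serpin of germinal-centre B cells, was 5.14, 5.07 and 5.49 in L428+MAT, with 12.16 to 12.46 in Raji and 9.14 to 9.52 in Namalwa (47.7-fold). MME, the peptidase CD10, was 7.07, 7.25 and 6.94 in L428+MAT and 6.71, 6.53 and 6.24 in L428+M, so every drug-treated value lay above every untreated one (0.59 ± 0.17, adjusted p = 0.0570). It was 11.42 to 12.37 in the Burkitt lines, 27.2-fold above L428+MAT. BCL6, the repressor that defines the germinal centre, was in contrast bright in L428+MAT at 10.00, 10.28 and 10.05, and 11.86 to 12.37 in the Burkitt lines (1.99 ± 0.14). GCSAM (2.22 ± 0.15), KLHL6 (2.92 ± 0.16), BCL7A (1.62 ± 0.11) and GNA13 (1.005 ± 0.12) were also expressed but lower. By limma, 0 of the 17 passed under the drugs, 1 had an unadjusted p under 0.05, and 1 (MME) passed with the replicate number as a block. Among all genes 4.21% rose and 0.635% fell, or 6.28% and 2.37% with the block, so a count of 0 in 17 is near those shares.

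HLA class II genes went both ways. Of 12 measured, 3 were higher, 5 lower and 4 did not pass, beside 22.3% higher and 19.8% lower among all genes. The share higher was thus near that of all genes. HLA genes resemble one another in sequence, so signal may be shared between their probe sets. HLA-DQA1 was silent at 6.62, 6.61 and 7.14 in L428+MAT, with 9.24 to 9.85 in Raji and 7.35 to 8.30 in Namalwa (1.92 ± 0.20). RFXAP, a subunit of the factor that binds class II promoters, was silent at 6.41, 6.34 and 6.48 against 8.01 to 8.16 over the Burkitt arrays (1.67 ± 0.10). The chains HLA-DPA1 (13.40, 13.48 and 13.71 in L428+MAT) and HLA-DPB1 (13.30, 13.43 and 13.58) were bright in L428+MAT and were lower in the Burkitt mean, by -1.06 ± 0.14 and -1.46 ± 0.12 on the log2 scale. CIITA, the master coactivator of the class, lay near the threshold (-0.37 ± 0.16, adjusted p = 0.0704). It passed as lower in Namalwa alone (-0.48, adjusted p = 0.0453), after quantile normalization (adjusted p = 0.0471), without L428+MAT replicate 1 (adjusted p = 0.0298) and without Raji replicate 1 (adjusted p = 0.0466).

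The 5 genes that the drugs raised toward the Burkitt level remained below it in at least one line. CD38, an ectoenzyme of activated and germinal-centre B cells, went from 6.40, 6.19 and 5.96 in L428+M to 7.89, 8.15 and 8.07 in L428+MAT (1.86 ± 0.14, 3.62-fold, adjusted p = 6.47e-08). It was 12.12 to 12.34 over the Burkitt arrays, so 4.17 ± 0.12 remained (18-fold, adjusted p = 1.85e-15). CR2, the complement receptor CD21, went from 5.25, 4.79 and 4.30 to 7.32, 6.53 and 6.55 (2.02 ± 0.22, 4.05-fold, adjusted p = 9.66e-06). Raji had 10.99 to 11.20, but Namalwa had 6.13 to 6.59, which overlaps the drug-treated values (-0.41, adjusted p = 0.17). CD52, a small surface glycoprotein of lymphocytes, went from 6.29, 6.03 and 6.95 to 7.45, 7.33 and 8.16 (1.23 ± 0.26, adjusted p = 6.16e-03), and the Burkitt arrays held 10.22 to 11.02.

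IRF8, a factor of germinal-centre and myeloid cells, was 9.62, 8.99 and 8.15 in L428+M, 10.22, 9.81 and 9.67 in L428+MAT and 11.04 to 11.52 in the Burkitt lines. HLA-DOB, which modulates peptide loading in B cells, was 5.93, 6.01 and 6.53 in L428+M, 6.49, 7.04 and 7.20 in L428+MAT, 9.45 to 9.64 in Raji and 6.82 to 6.94 in Namalwa. Their drug changes of 0.98 ± 0.28 and 0.75 ± 0.21 only just passed (adjusted p = 0.0481 each). The L428+M and L428+MAT ranges overlap for HLA-DOB and lie close together for IRF8. For IRF8 the rise no longer passed when L428+M replicate 2, L428+M replicate 3 or any single L428+MAT array was left out (adjusted p from 0.0640 to 0.215). For HLA-DOB this held for leaving out replicate 1 or 2 of L428+M, or 2 or 3 of L428+MAT (adjusted p from 0.174 to 0.215), and with array medians subtracted (adjusted p = 0.106). It also held with quantile normalization (adjusted p = 0.0619), the mean of probe sets (adjusted p = 0.0750) and only the compared groups in the fit (adjusted p = 0.138). IRF8 was also lost with only the compared groups (adjusted p = 0.185). Both calls were lost when any single Raji or Namalwa array was left out. Those arrays enter this comparison only through the estimate of spread. CD38, CD52 and CR2 kept their calls in each of these fits. With the replicate number as a block the adjusted p was 4.36e-03 for IRF8 and 6.63e-03 for HLA-DOB.

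**Figure D5:**
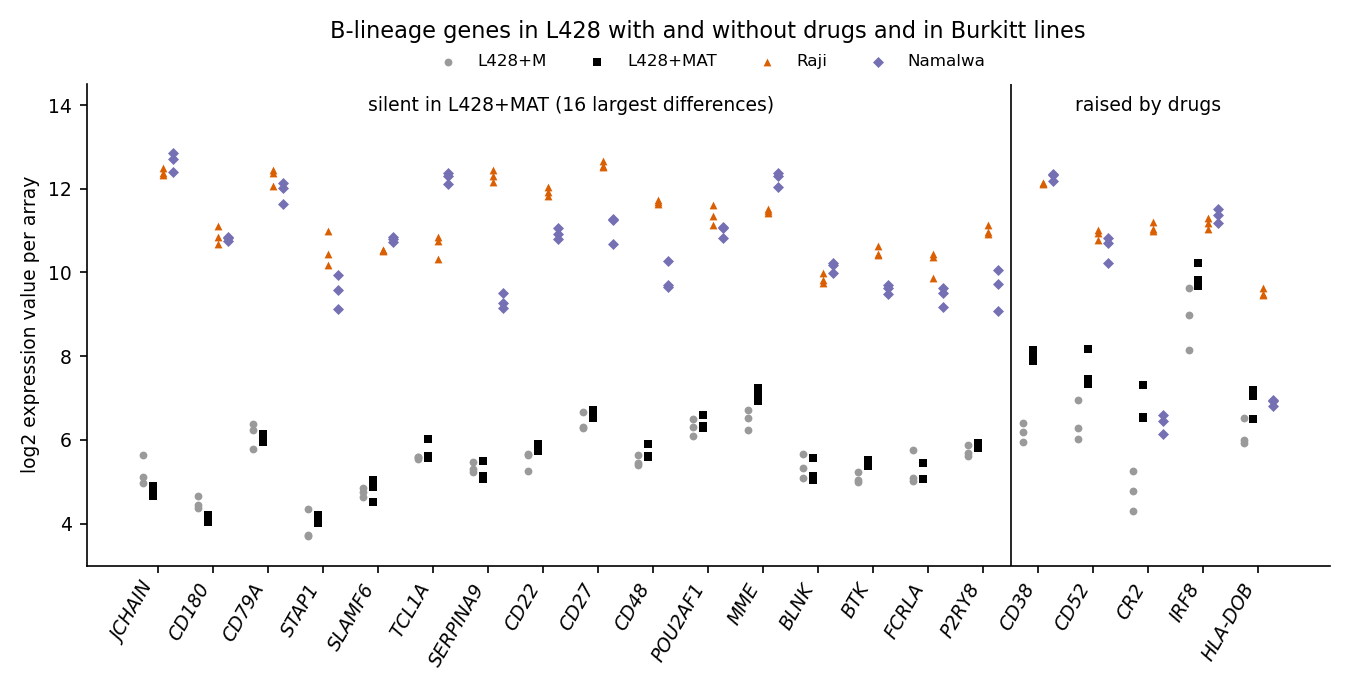
Log2 expression value on each array (y axis) for the 16 silent B-lineage genes with the largest difference and the 5 raised genes, ordered by difference within each class; each marker is an array, 3 per group. In the silent genes the L428+MAT squares sit beside the L428+M circles and below every Raji and Namalwa value, as in CD79A with 5.96 to 6.13 against 11.64 to 12.45, and in CR2 and HLA-DOB the Namalwa diamonds lie at the L428+MAT level.

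The drugs acted on other B-lineage genes that were not Burkitt-high. In all, 11 of the 140 rose and 1 fell under the drugs (beside 4.21% and 0.635% of all genes), or 18 up and 3 down when the replicate number was a block. Without single arrays the count that rose was 5 (L428+M replicate 2), 6 (L428+MAT replicate 1) or 7 (L428+M replicate 3 or L428+MAT replicate 2). FCER2, the low-affinity IgE receptor CD23, rose from 7.53, 8.03 and 7.23 to 9.18, 9.41 and 9.01 (1.60 ± 0.18, adjusted p = 1.36e-05), away from the Burkitt lines at 6.22 to 6.53 in Raji and 7.47 to 7.80 in Namalwa. CD40, the receptor for T-cell help, rose by 0.78 ± 0.19 (adjusted p = 0.0204) and was lower in the Burkitt mean (-0.92 ± 0.16). BACH2, a repressor of plasma-cell fate, rose from a range of 7.85 to 8.16 in L428+M to 8.54 to 8.85 in L428+MAT (0.65 ± 0.16, adjusted p = 0.0203), between 6.22 to 6.59 in Raji and 10.51 to 10.71 in Namalwa. SIGLEC10 (0.50 ± 0.13, adjusted p = 0.0297), HLA-DOA (0.49 ± 0.13, adjusted p = 0.0417) and IFITM1, given above, complete the 11. The calls of BACH2, CD40, SIGLEC10 and HLA-DOA were each lost without L428+M replicate 2 and without L428+MAT replicate 1 (adjusted p from 0.0520 to 0.149). The block added MME, CXCR5, SPIB, RASGRP3, IKZF3, SLAMF1 and HLA-DMB upward, and CD37 and CXCR4 downward.

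The Burkitt lines were also set against L428 before the drugs. Against L428+M 74 of the 140 were Burkitt-high, against L428+MAT 73, and 69 were in both sets, counts that share the Burkitt arrays. FYN, RUNX3, SIGLEC10, SPIB and TCF12 were Burkitt-high against L428+M only, and CSK, GNA13, PRKCB and TNFRSF13B against L428+MAT only. The 2-fold limit fell among close values, with GNA13 at 1.005, PRKCB at 1.01, SLAMF7 at 1.03 and VAV1 at 1.04 just inside, and GPR18 at 0.94, S1PR2 at 0.93, RUNX3 at 0.92 and TCF12 at 0.91 just outside.

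Of all Burkitt-high genes, 32 rose at least 2-fold under the drugs, 3 of them on the B-lineage lists (CR2, CD38 and CD52) and 29 beyond them. ZNF737, a zinc finger gene, rose most, from 4.73, 4.52 and 4.93 in L428+M to 7.95, 7.97 and 6.87 in L428+MAT (2.87 ± 0.24, adjusted p = 1.91e-07), beside 9.19 to 9.55 in the Burkitt lines. ALDOC, the glycolytic enzyme aldolase C, rose from 7.13, 7.06 and 7.34 to 10.06, 10.22 and 9.76 (2.84 ± 0.21), 2.00 ± 0.18 below the Burkitt mean. ZNF506 (2.21 ± 0.14), PDLIM1 (1.89 ± 0.22), ZNF486 (1.83 ± 0.26) and ARHGEF6, a guanine nucleotide exchange factor (1.75 ± 0.21), followed with CR2 and CD38 among the 8 largest. PDLIM1 was Burkitt-high through Namalwa at 10.41 to 10.96, and Raji at 6.81 to 7.20 lay below L428+MAT.

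The drugs did move genes of other lists strongly in the same arrays. Of 20 measured cancer-testis genes, germline genes known to be held silent by methylation, 11 rose under the drugs, or 14 with the replicate number as a block. These counts stand beside 4.21% and 6.28% of all genes. In the Burkitt mean 13 were lower and 0 higher, beside 19.8% and 22.3% of all genes (0 higher also at an unadjusted p under 0.05, by limma). SSX1 went from 5.06, 4.41 and 5.10 to 10.33, 10.13 and 10.25 (5.38 ± 0.18, adjusted p = 9.48e-13), and TKTL1 from 6.01, 6.41 and 6.29 to 11.54, 11.11 and 11.24, while the Burkitt arrays held 4.71 to 5.59 of SSX1 and 5.71 to 6.05 of TKTL1. SSX and MAGE genes have close relatives that may share signal. Of 31 interferon-response genes, 23 rose under the drugs, or 26 with the replicate number as a block, beside the same shares of all genes. In the Burkitt mean 28 were lower and 0 higher, again beside 19.8% and 22.3% (1 higher at an unadjusted p under 0.05, and 1 at an adjusted one with array medians subtracted). XAF1 was 11.92 to 12.08 in L428+MAT, 10.40 to 10.50 in L428+M and 6.17 to 8.24 in the Burkitt lines (-4.71 ± 0.19).

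Genes of the Hodgkin cell were mostly lower in the Burkitt lines than in L428+MAT. Of 30 measured, 26 were lower in the Burkitt mean, 4 did not pass and 0 were higher (0 at an unadjusted p under 0.05, by limma), with a median difference of -3.42 beside 0.10 for all genes. Of all genes 19.8% were lower and 22.3% higher. IL13RA1, a receptor chain for interleukin 13, was 11.24, 11.13 and 11.48 in L428+MAT and 4.17 to 4.81 in the Burkitt lines (-6.70 ± 0.18). MSC, an inhibitor of E proteins, was 11.68, 11.83 and 11.20 in L428+MAT and 5.33 to 5.64 in the Burkitt lines (-6.04 ± 0.20), and CCND2, cyclin D2, differed by -6.51 ± 0.15. The drug changes of IL13RA1 (-0.27 ± 0.21) and CCND2 (0.04 ± 0.17) did not pass. Under the drugs 5 of the 30 rose (CCL22, LTA, TNFRSF9, PTGS2 and STAT5A), 7 with the replicate number as a block, and 3 when either L428+M replicate 3 or, in another fit, L428+MAT replicate 2 was left out. Among all genes 4.21% rose, or 6.28% with that block. The chemokine CCL22 rose from 6.56, 6.63 and 6.33 in L428+M to 9.18, 9.30 and 9.14 in L428+MAT (2.70 ± 0.17). The largest negative differences were those of SH2D1B, an adaptor of SLAM receptors (-7.78 ± 0.30), CYP4Z1 (-7.64 ± 0.22), GTSF1 (-7.50 ± 0.14), the phospholipase PLA2G4A (-7.35 ± 0.25), the chemokine CCL1 (-7.28 ± 0.28), LRRN3 (-7.10 ± 0.25), the receptor GPR15 (-7.02 ± 0.42) and the annexin ANXA1 (-6.76 ± 0.17).

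Other lists gave the surroundings of these differences, and their counts stand beside 22.3% of all genes higher and 19.8% lower. NF-kB targets were lower in 19 of 26 and higher in 2 (NFKBIE and LTB), and CXCL10 was 51.2-fold lower in the Burkitt mean (-5.68 ± 0.20). MYC and ribosome biogenesis genes were higher in 14 of 21 and lower in 1 (NOP58, which did not pass with array medians subtracted), with MYC itself 1.18 ± 0.13 higher and ODC1, the first enzyme of polyamine synthesis, 2.06 ± 0.19. Of 24 genes for DNA methylation and deacetylation, 13 were higher and 3 lower, among them DNMT1, the maintenance methyltransferase that 5-aza-dC traps, at 11.06, 11.07 and 11.12 in L428+MAT and 11.86 to 12.32 in the Burkitt lines (1.05 ± 0.11). Plasma-cell genes were mixed, with 5 of 17 higher, 6 lower and 6 not passing, where MZB1, a chaperone of immunoglobulin (2.55 ± 0.12), was higher and PRDM1, the regulator BLIMP1 (-2.23 ± 0.14), lower. The cell-cycle list had 6 of 29 higher and 9 lower, none of them 2-fold, and the p53 list 4 of 21 higher and 8 lower, where the shares higher were near that of all genes. Leaving out single arrays moved some of these small counts, with 1 NF-kB target higher without L428+MAT replicate 1, 2 p53 genes higher and 1 methylation gene lower without L428+MAT replicate 2. Of 26 T and NK cell genes, 4 were higher (2 with dim genes removed) and 3 lower, both smaller shares than among all genes, led by LCK (2.00 ± 0.13) and IL2RB (-3.68 ± 0.20). Myeloid genes had 0 of 22 higher by limma (3 at an unadjusted p under 0.05, and 3 at an adjusted one with array medians subtracted or quantile normalization) and 5 lower, and fibroblast and epithelial genes had 0 of 20 higher (0 unadjusted) and 7 lower.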

How the data were processed

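RNA of 18 samples in 6 groups of 3 was measured on arrays. The authors deposited one log2 intensity value for each probe set and array. RMA and Partek are named per the submitters' processing notes, and neither their versions, their order nor a genome build is stated there. Of 33297 probe sets, 19460 carry 1 gene symbol, 1754 several and 12083 are unlisted and unnamed here. The gene identifiers of 19429 matched RefSeq. The brightest probe set on average was kept for each of 769 genes with several, which left 18417 genes.

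Differences of group means were tested with limma 3.58.1 (lmFit, eBayes) in R 4.3.3 over all 18 arrays, with 12 residual and 6.1 prior degrees of freedom, two-sided, with Benjamini-Hochberg adjustment over all genes. The steps were run on simulated data with independent noise on each array. Same-numbered arrays share deviations in the real data, so that run does not show how reliable the calls here are. Precision rests on 3 arrays per group, and no detection calls were used. Python 3.11.15 with pandas 2.3.3 and numpy 2.4.6 built the tables, and matplotlib 3.10.9 the plots.

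Replicate numbers come from the titles. The deviations of same-numbered arrays of L428+MAT and L428+M correlated (r = 0.655, 0.489 and 0.549), so these numbers were taken to pair the groups. For the drug comparison a fit with the replicate number as a block is given for reported genes and list counts whose drug calls it changed.

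The members, the 18 gene lists and the tests were chosen with earlier results of these data known. Named genes were PAX5, the 8 largest differences each way without overlap and with the higher mean above the median of all values, the 4 largest of each B-lineage list and class with others in short, up to 3 passing genes each way of other lists, and the 8 largest drug rises among Burkitt-high genes. Other B-lineage genes named for how they differed between the lines, or as genes not passing, were chosen after their values were seen. Alternatives were other scalings, probe set rules, filters, variance models, single lines and single arrays left out.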

Additional observations from a re-analysis of the deposited data

Results flagged for a closer look

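In 5 B-lineage genes Raji and Namalwa each differed from L428+MAT by a passing test, in opposite directions, and the lines differed from each other by a passing test. Genes with opposite signs of which only 1 or neither line passed, such as CR2, are not among the 5. Values are Raji minus Namalwa on the log2 scale with SE and limma adjusted p, from 3 arrays per group. LEF1, a partner of beta-catenin, differed by -6.40 ± 0.19 (adjusted p = 2.82e-14), at -2.85 against L428+MAT in Raji and 3.55 in Namalwa. CD24, a surface glycoprotein of early B cells, differed by -5.87 ± 0.28 (adjusted p = 1.06e-11), at -4.996 in Raji and 0.88 in Namalwa. RGS13, a regulator of chemokine signalling in germinal-centre B cells, differed by 5.51 ± 0.31 (adjusted p = 7.48e-11), at 2.31 in Raji and -3.20 in Namalwa. BANK1 differed by 4.20 ± 0.19 (adjusted p = 4.97e-12), at 3.68 and -0.52, and BACH2 by -4.15 ± 0.16 (adjusted p = 5.36e-13), at -2.22 and 1.92. For LEF1, RGS13 and BACH2 the mean of both lines gave 0.35, -0.44 and -0.15, which did not pass, so the Burkitt mean describes neither line in these genes.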

How the results depend on the processing

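The count of 43 silent genes was 39 to 44 under the other scalings, probe set rule, filter, variance model, fits and single lines, 42 to 48 with 1 array left out, 41 with the replicate block, 31 with a minimum difference of 2 on the log2 scale and 19 with the 25th percentile in place of the median. The count of 5 raised genes was 3 to 5 with 1 array left out and 3 with only the compared groups in the fit. It was 7 with the replicate block and 2 with a minimum difference of 2 on the log2 scale. With array medians subtracted, 5821 genes were higher in Raji than L428+MAT instead of 3507. Genes lower in L428+MAT than L428+M numbered 117, 38 with only the compared groups in the fit, 436 with the replicate block, and 43 to 167 with 1 array left out (43 without L428+M replicate 1, 45 without L428+MAT replicate 3, 59 without L428+M replicate 2 and 61 without L428+MAT replicate 2). Same-numbered arrays of the Burkitt lines and L428+MAT correlated from 0.054 to 0.198 for replicates 1 and 2. For replicate 3 the correlation was 0.453 in Raji and 0.505 in Namalwa, and 0.541 between Raji and Namalwa. A deviation of the replicate 3 arrays was thus shared between groups, and the main comparison was fitted without a block. With the replicate block it gave 5124 higher and 4144 lower genes, instead of 4102 and 3653. Calls that the block added included SPIB (adjusted p = 0.0286), CIITA (adjusted p = 0.0445), LEF1 (adjusted p = 0.0457) and, as higher, 3 myeloid genes. Signs turned in a single line for ADAM28 (-0.16), BACH2 (1.92), BANK1 (-0.52), CD24 (0.88), CR2 (-0.41), FCRL3 (-0.049) and HLA-DOB (-0.014) in Namalwa, and HLA-DMB (0.28), HLA-DOA (0.11), LEF1 (-2.85), PDLIM1 (-0.82), RGS13 (2.31), TET1 (-0.20) and VAV2 (-0.20) in Raji. Of 209 named genes, 55 changed call under at least 1 setting in the main comparison, and of 140 B-lineage genes 15 did so under the drugs. Among drug calls, BACH2, CD40, SIGLEC10, HLA-DOA, IRF8 and HLA-DOB were lost with 1 or more arrays left out or with another setting. No detection calls were used, so dim values have no measured floor.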
